A study of Mus musculus with 9 samples.

Results

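The apolipoproteins and the genes of lipoprotein handling were examined in the liver as 1 group of 32 genes, out of 33211 genes in the table. The members were taken by symbol from a list of 13 apolipoproteins, 2 genes of very low density lipoprotein (VLDL) assembly, 6 lipases and their regulators, 4 genes of high density lipoprotein (HDL) remodelling and cholesterol export, 4 receptors and sorting proteins, and 3 paraoxonases. The list goes by symbol, though it was drawn up with earlier results of these data known. All 32 were in the table, 1 of them (Angptl8, ENSMUSG00000047822) under the older symbol Gm6484, and all 32 passed the filter on low counts that left 14220 genes for testing.

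RNA-seq had been performed on livers of wild-type male C57BL/6 mice that began a high-fat diet (HFD) at 8 weeks of age and stayed on it for 7 weeks. Every animal received the HFD, so there is no group on ordinary chow. The opened diet had been kept for 7 days in a freezer at -20 °C (HFDfre, n = 5 libraries) or in a fridge at 4 °C (HFDfri, n = 4 libraries), and the comparison asks how this storage bears on expression in the liver. The animals had no transgene or deletion, the labels give no sign that livers were pooled, and the p-values below measure the spread between these libraries.

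The liver packs triglyceride and cholesterol into lipoproteins for transport in blood. Apolipoprotein B (Apob) is the scaffold of VLDL, and apolipoproteins A-I and A-II are the main proteins of HDL, while the small C apolipoproteins and apolipoprotein E move between particles and steer their lipolysis and uptake. Lipases at the vessel wall remove fatty acids from the particles, transporters such as Abca1 load cholesterol onto nascent HDL, and hepatic receptors clear what remains.

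Depth was similar across the libraries, at 58614917 to 69353439 counts each, while composition was not. A ribosomal RNA-like locus, Gm26924, took 0.466% to 11.1% of the counts of a library. Mitochondrial genes took 11.4% to 19.8% of the counts in HFDfre and 8.93% to 13.6% in HFDfri, and major urinary protein (Mup) genes took 5.12% to 8.94% and 9.17% to 14.4%. Of the hepatocyte markers, all 8 passed the filter, with a summed level of 83954 to 91226 CPM in HFDfre and 75194 to 104025 CPM in HFDfri, whereas of 5 adipocyte markers only Cfd passed (13.3 to 49.97 against 8.498 to 28.8 CPM) and Adipoq and Plin1 were at 0 in all 9 libraries. CPM here is a gene's count relative to the total of its library, with the totals scaled by trimmed means (TMM). Marker sums of other cells overlapped between the groups for liver endothelium (96.3 to 119 against 76.2 to 123 CPM), macrophages (63.4 to 139 against 73.3 to 97.2 CPM), stellate cells (127 to 198 against 102 to 178 CPM) and cholangiocytes (25.5 to 46.5 against 23.9 to 46.9 CPM). They did not overlap for the 6 lymphocyte markers, which summed to 1.96 to 3.72 CPM in HFDfre and 0.7195 to 1.798 CPM in HFDfri. Taken singly, 0 of these 6 were without overlap, and the lowest unadjusted p was 0.0709 (edgeR). By unadjusted p under 0.05 (edgeR), 3 of the 8 hepatocyte markers were higher and 1 was lower. Of 8 endothelial and 8 stellate markers, 2 each were lower, and of 5 cholangiocyte markers 1 was higher. Of 8 macrophage markers 0 passed. The share of all tested genes was 21.2%. Of 6 markers of muscle and intestine only Fabp2 passed, at 142 to 201 and 94.1 to 148 CPM. Fits with mitochondrial, Mup and Gm26924 counts left out, and with the Gm26924 share as a covariate, are given in the last section. Beyond such fits, the part of these shares and sums in the results below was not tested. In bulk liver, fewer cells of a type and less RNA per cell cannot be told apart.

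Of the 13 apolipoprotein mRNAs, 11 were lower in HFDfri, beside 7234 of all 14220 tested genes. Of the 4 receptors and sorting proteins, 3 were higher, beside 6986 of all tested genes. Each difference among the members was modest, and 0 of the 32 reached 2-fold, beside 536 of all tested genes. The lowest p-values belonged to Abca1, the cholesterol exporter, at 1.41 times its HFDfre level, Tm6sf2, a VLDL lipidation factor, at 0.777 times, Apom, the HDL carrier of sphingosine-1-phosphate, at 1.71 times, and Apoa2, the second protein of HDL, at 0.657 times. With edgeR's quasi-likelihood test, 0 of the 32 members had an adjusted p under 0.05, beside 1.05% of all tested genes. An unadjusted p under 0.05 was found for 14 members, which is 43.8% of them, beside 21.2% of all tested genes. Of these 14, 5 were higher in HFDfri (Apom, Apob, Abca1, Scarb1 and Sort1), beside 11.4% of all tested genes, and 9 were lower (Apoa2, Apoa4, Apoc1, Apoc2, Apoc3, Apoc4, Apoe, Tm6sf2 and Pon1), beside 9.79%. The libraries of the groups did not overlap for 5 members, beside 7.69% of all tested genes. Apom and Abca1 were on the higher side (4.02% of all tested genes) and Apoe, Apoh and Tm6sf2 on the lower (3.66%). The median log2 fold change of the members was -0.0368, beside -0.00679 for all tested genes.

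The number of members called depended on the tool and on 1 library. DESeq2, the tool of the study, gave 8 members with an adjusted p under 0.05, beside 9.8% of the genes for which it gave one. Abca1, Apom and Sort1 were higher (5.23% of those genes) and Apoa2, Apoc1, Apoc3, Apoe and Tm6sf2 lower (4.57%). limma-voom gave 0 with an adjusted p under 0.05, beside 1.04% of all tested genes, and 15 with an unadjusted one, beside 20.9%. Without the library HFDfri 1, edgeR gave 10 members with an adjusted p under 0.05, beside 7.65% of all tested genes. They were Abca1, Apom, Sort1 and Pon2 on the higher side (3.99%) and Apoa2, Apoc1, Apoc3, Apoc4, Pon1 and Tm6sf2 on the lower (3.66%). Without HFDfri 2, Abca1 alone passed, beside 1.63% of all tested genes. The unadjusted count was 9 without HFDfri 2, beside 19.4% of all tested genes, and 8 without HFDfri 3, beside 13.6%. HFDfri 1 held the highest or the lowest value of its group in 22 of the 32 members, against 11 to 20 for the other HFDfri libraries.

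**Figure D1:**
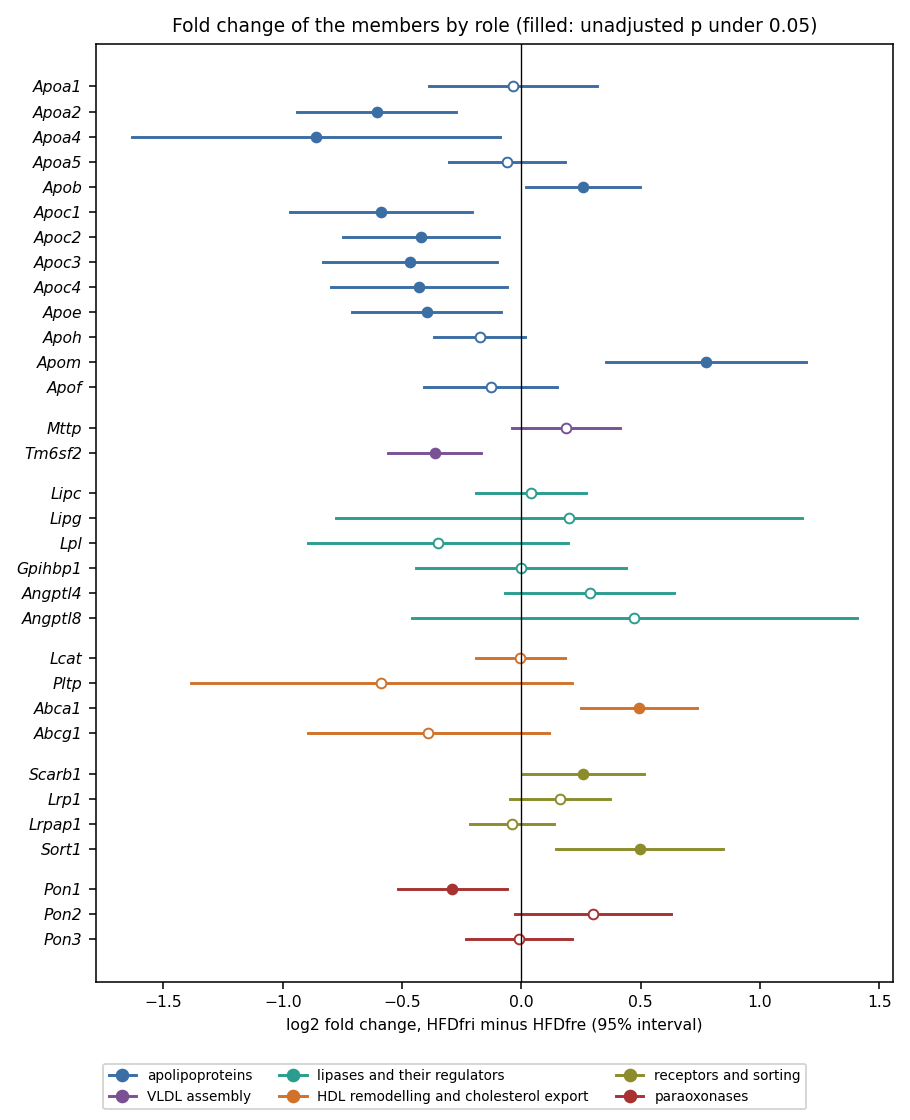
Log2 fold change of each member, HFDfri minus HFDfre, with its 95% interval from edgeR's quasi-likelihood fit (n = 5 and 4 libraries), grouped and coloured by role. Filled points have an unadjusted p under 0.05. Of the 13 apolipoproteins, 11 lie below 0, beside 7234 of all 14220 tested genes, and Apom and Apob lie above 0.

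**Figure D2:**
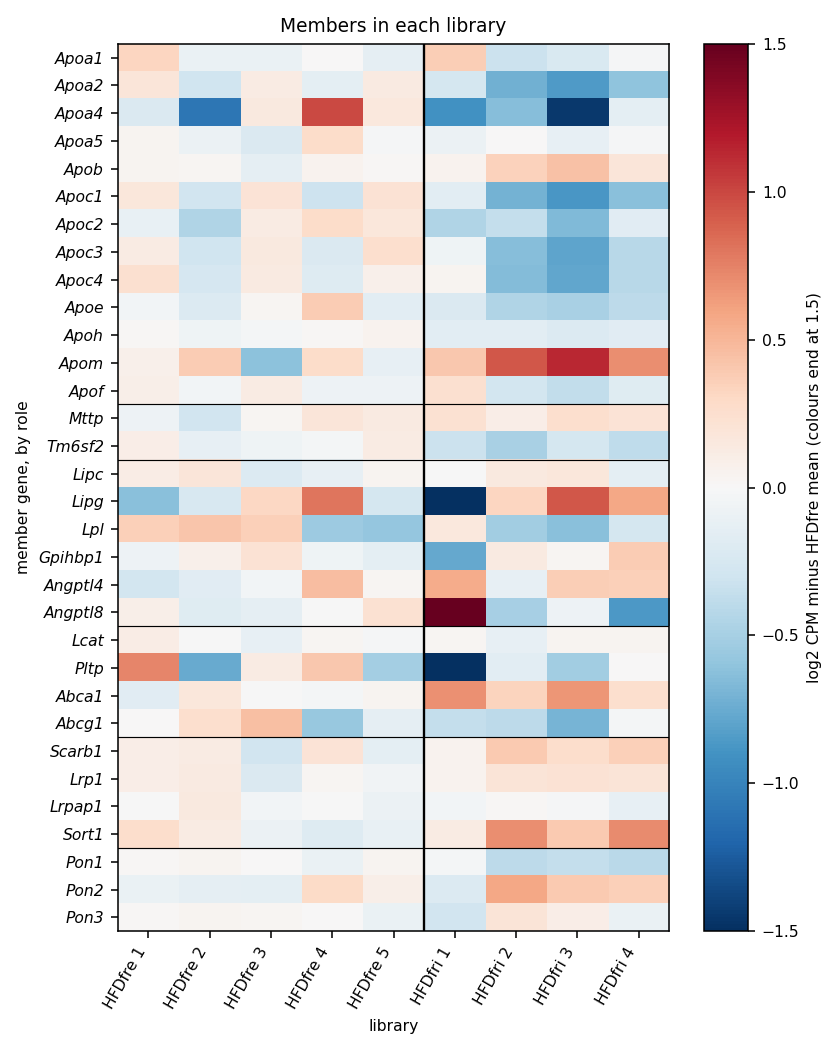
Log2 CPM of each member in each library minus the mean log2 CPM of the 5 HFDfre libraries, with members in rows by role and libraries in columns, and a line between the groups. Blue is lower and red is higher; HFDfri 1 departs from the other HFDfri libraries for Lipg, Angptl8 and Pltp, and its column is paler than theirs for Apoa2, Apoc1, Apoc3, Apoc4, Apoe and Pon1.

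The promoters of 4 members with an entry in the RefSeq table are shown. Abca1, Apom and Apoa2 had the lowest p-values among the members with an entry, and Apoe had the highest CPM of all members and no overlap between the groups. Each runs from 250 bases before to 50 bases after a RefSeq transcription start (GRCm38.p6) and is written 5′ to 3′ on the strand of the gene. Capitals mark any match, on either strand, to the letters TATAAA of the TATA box or the letters CCAAT of the CCAAT box. They also mark the nuclear receptor half-site AGGTCA, the half-site GTTAAT of the factor HNF1, and the E-box CACGTG.
Abca1, chr4:53159846-53160145, minus strand: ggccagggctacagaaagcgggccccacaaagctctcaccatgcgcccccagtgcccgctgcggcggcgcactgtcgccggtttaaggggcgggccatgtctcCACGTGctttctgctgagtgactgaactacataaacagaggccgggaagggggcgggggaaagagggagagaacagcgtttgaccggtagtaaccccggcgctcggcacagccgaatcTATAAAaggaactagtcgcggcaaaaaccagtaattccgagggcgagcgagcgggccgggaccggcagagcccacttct
Apom, chr17:35131752-35132051, minus strand: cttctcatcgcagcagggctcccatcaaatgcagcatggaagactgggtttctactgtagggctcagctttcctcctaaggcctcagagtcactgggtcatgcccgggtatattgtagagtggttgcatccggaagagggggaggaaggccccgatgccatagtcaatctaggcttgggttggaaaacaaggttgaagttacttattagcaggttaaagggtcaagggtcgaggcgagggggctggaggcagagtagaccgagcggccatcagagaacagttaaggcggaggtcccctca
Apoa2, chr1:171224804-171225103, plus strand: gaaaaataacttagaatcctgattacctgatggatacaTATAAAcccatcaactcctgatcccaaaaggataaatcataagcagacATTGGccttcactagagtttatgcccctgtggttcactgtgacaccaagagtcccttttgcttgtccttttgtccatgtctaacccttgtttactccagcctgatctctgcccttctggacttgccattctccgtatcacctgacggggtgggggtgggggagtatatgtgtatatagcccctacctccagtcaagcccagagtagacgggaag
Apoe, chr7:19699139-19699438, minus strand: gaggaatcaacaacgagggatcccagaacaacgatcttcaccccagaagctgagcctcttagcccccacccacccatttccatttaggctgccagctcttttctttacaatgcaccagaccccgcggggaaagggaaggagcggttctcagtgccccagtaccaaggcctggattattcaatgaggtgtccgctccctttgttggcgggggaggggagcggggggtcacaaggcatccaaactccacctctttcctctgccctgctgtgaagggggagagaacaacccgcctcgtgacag
Of the 32 members, 21 have a promoter in the RefSeq table, with 26 windows between them. TATAAA was in 7 of the 26 windows, beside 13.6% of all 32851 promoters, and CCAAT was in 8, beside 37.4%. AGGTCA was in 6, beside 16.3%, GTTAAT in 2, beside 7.10%, and CACGTG in 3, beside 7.15%. The 2 Apoa5 windows overlap and hold the same E-box and TATA box. By gene, CACGTG was in 2 of 21 and TATAAA in 6 of 21. A match is a description of the letters and not a site of binding. The Abca1 window holds a TATA box and an E-box, the Apoa2 window a TATA box and a CCAAT box, and none of the 5 motifs is in the Apom and Apoe windows shown. Apoe has 3 windows and Apoa2 has 2 in the table, and the one at the start of the GENCODE gene is shown. Of the other Apoe windows, 1 holds GTTAAT and 1 holds TATAAA, and the other Apoa2 window holds AGGTCA and CCAAT.

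Of the apolipoproteins, 11 of 13 were lower in HFDfri, beside 7234 of all 14220 tested genes. The median log2 fold change over all 13 was -0.40, beside -0.00679 for all tested genes. Of these 11 lower genes, 7 had an unadjusted p under 0.05, beside 9.79% of all tested genes on the lower side. Apoa1 turned to 0.0158 with library totals in place of TMM. With a correction for exon length and GC content, chosen after seeing the data, Apoa1, Apoa5 and Apof turned above 0. This left 8 of 13 lower. Of these 8, 3 (Apoa2, Apoc1 and Apoc4) had an unadjusted p under 0.05, beside 19.6% of all tested genes in both directions. Apolipoprotein transcripts took 4.88% to 6.48% of the counts of a library in HFDfre and 4.39% to 4.96% in HFDfri. Together the members took 5.13% to 6.75% and 4.66% to 5.20%, so apolipoproteins held most of the counts of the group. The apolipoprotein shares of the groups overlapped through HFDfre 2 and HFDfri 1 alone.

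Within 43.3 kb of chromosome 9 (chr9:46228580-46271919, GRCm38) lie 4 of the genes, Apoa1, Apoc3, Apoa4 and Apoa5. Apoa1 encodes the main protein of HDL, and its group means were close, at 11630.3 ± 1632 CPM (SD, n = 5) for HFDfre against 11359.6 ± 2540.3 CPM (SD, n = 4) for HFDfri. Its log2 fold change was -0.03397, with a 95% interval of -0.39 to 0.32. Its highest values were in 1 library of each group, 14458 CPM in HFDfre 1 and 14923 in HFDfri 1. The neighbour Apoc3, an inhibitor of triglyceride clearance, was at 2699.6, 2017, 2747, 2125 and 2946 CPM in HFDfre 1 to 5 and at 2375, 1591, 1437 and 1855 in HFDfri 1 to 4. The 3 lowest values were all HFDfri, while HFDfri 1 lay inside the HFDfre range, so the groups overlapped. The log2 fold change of Apoc3 was -0.47 (SE 0.17, edgeR adjusted p = 0.151).

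Apoa4, an apolipoprotein of triglyceride-rich particles that the liver makes in fasting and in steatosis, varied more than any other member within HFDfre. It stood at 1074, 592, 1387, 2492 and 1397 CPM in HFDfre 1 to 5 and at 664, 806, 459 and 1132 in HFDfri 1 to 4, with a coefficient of variation of 50.3% and 37.0%. The log2 fold change of -0.86 (SE 0.35, edgeR adjusted p = 0.196) was the lowest of the members, yet the groups overlapped and the interval reached from -1.63 to -0.09. Without HFDfre 4 the log2 fold change was -0.54, which was not the lowest, and its unadjusted p was no longer under 0.05. Apoa5, an activator of lipoprotein lipase, was close to level, at 1151 to 1623 CPM in HFDfre and 1230.0 to 1347 in HFDfri (log2 fold change -0.0616, interval -0.31 to 0.18). Exons of Apoa4 and Apoa5 overlap genes on the opposite strand, and whether the counting used strand is not stated. The genes of this stretch of chromosome 9 thus ran from near 0 for Apoa1 and Apoa5 to the lowest log2 fold change of the members for Apoa4.

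Apoa2 (ENSMUSG00000005681, chr1:171225054-171226379, plus strand), which lies apart on chromosome 1, had 11784, 8427, 11311, 9399 and 11424 CPM in HFDfre 1 to 5. In HFDfri 1 to 4 it had 8625, 6309, 5769 and 6809 CPM. All but 1 HFDfri library lay below every HFDfre library, and HFDfri 1 lay above HFDfre 2 alone. The means were 10469 ± 1472 and 6878 ± 1239 CPM (SD), a log2 fold change of -0.61 (SE 0.15, edgeR adjusted p = 0.0741). Over the alternative fits its adjusted p ran from 0.00185 to 0.445, with 0.00185 in DESeq2 and 0.02103 without HFDfri 1.

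The second cluster, 27.6 kb of chromosome 7 (chr7:19671579-19699188, GRCm38), holds Apoc2, Apoc4, Apoc1 and Apoe. All 4 were lower in HFDfri with an unadjusted p under 0.05, beside 9.79% of all tested genes. Apoe (ENSMUSG00000002985, chr7:19696109-19699188, minus strand), the ligand through which remnants are taken up, had the highest CPM of the members. Its values were 18628, 16535, 19453, 24877 and 17174 CPM in HFDfre 1 to 5 and 16514, 14037, 13674 and 14532 in HFDfri 1 to 4. The groups did not overlap, though the highest HFDfri library and the lowest HFDfre library nearly touched. The log2 fold change was -0.40 (SE 0.14, edgeR adjusted p = 0.152), and over the alternative fits the adjusted p ran from 0.0376 to 0.664.

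Apoc1, an inhibitor of lipoprotein uptake and of lipases, had 4768, 3466, 4898, 3427 and 4945 CPM in HFDfre 1 to 5 and 3797, 2590.0, 2318 and 2739.6 in HFDfri 1 to 4. The libraries HFDfre 2 and HFDfre 4 were well below the other HFDfre libraries, and HFDfri 1 lay between them and the rest. Its log2 fold change was -0.59 (SE 0.18, edgeR adjusted p = 0.105). Apoc2, the cofactor of lipoprotein lipase, had 230.1, 182, 270.5, 300.4 and 280.4 CPM in HFDfre and 182, 195, 157 and 221 in HFDfri, with a log2 fold change of -0.42 (SE 0.15, edgeR adjusted p = 0.148). Apoc4, a minor apolipoprotein of VLDL, had 1051, 749, 976, 778 and 935 CPM and 917, 569, 517 and 666, with a log2 fold change of -0.43 (SE 0.17, edgeR adjusted p = 0.182). Both overlapped between the groups, and both share exons with Gm44805 on the same strand, so their counts are uncertain.

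Apob and Apom went the other way from the rest of the apolipoproteins. Apob (ENSMUSG00000020609, chr12:7977648-8016835, plus strand) had 2716, 2675, 2392, 2728 and 2659.5 CPM in HFDfre 1 to 5 and 2721, 3352, 3565 and 2977 in HFDfri 1 to 4. Of the HFDfri libraries, HFDfri 1 lay within the HFDfre range and the other 3 lay above it. Its log2 fold change was 0.26 (SE 0.11, edgeR adjusted p = 0.205). Apom (ENSMUSG00000024391, chr17:35128997-35132050, minus strand) had 49.2, 60.7, 30.4, 56.6 and 42.7 CPM in HFDfre 1 to 5 and 61.8, 88.6, 102 and 75.7 in HFDfri 1 to 4, and every HFDfri library was above every HFDfre library. With means of 47.9 ± 11.97 and 81.9 ± 17.1 CPM (SD), its log2 fold change of 0.77 was the highest of the members (SE 0.19, edgeR adjusted p = 0.0701). The adjusted p ran from 0.00349 to 0.3704 over the alternative fits, and it was 0.00349 in DESeq2, 0.0458 with the Gm26924 share as a covariate and 0.02505 without HFDfri 1.

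Apoh and Apof complete the apolipoproteins. Apoh, a phospholipid-binding plasma protein also known as beta-2-glycoprotein I, had the tightest values of all members, with 2031, 1915, 1958, 2019.8 and 2081 CPM in HFDfre and 1790.1, 1791, 1728 and 1779 in HFDfri. Every HFDfri library was below every HFDfre library, at a log2 fold change of only -0.18 (SE 0.09, edgeR adjusted p = 0.279). Apof, known as a lipid transfer inhibitor in human plasma, ran from 592 to 679 CPM and from 485 to 741 CPM (log2 fold change -0.13, interval -0.41 to 0.15).

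**Figure D3:**
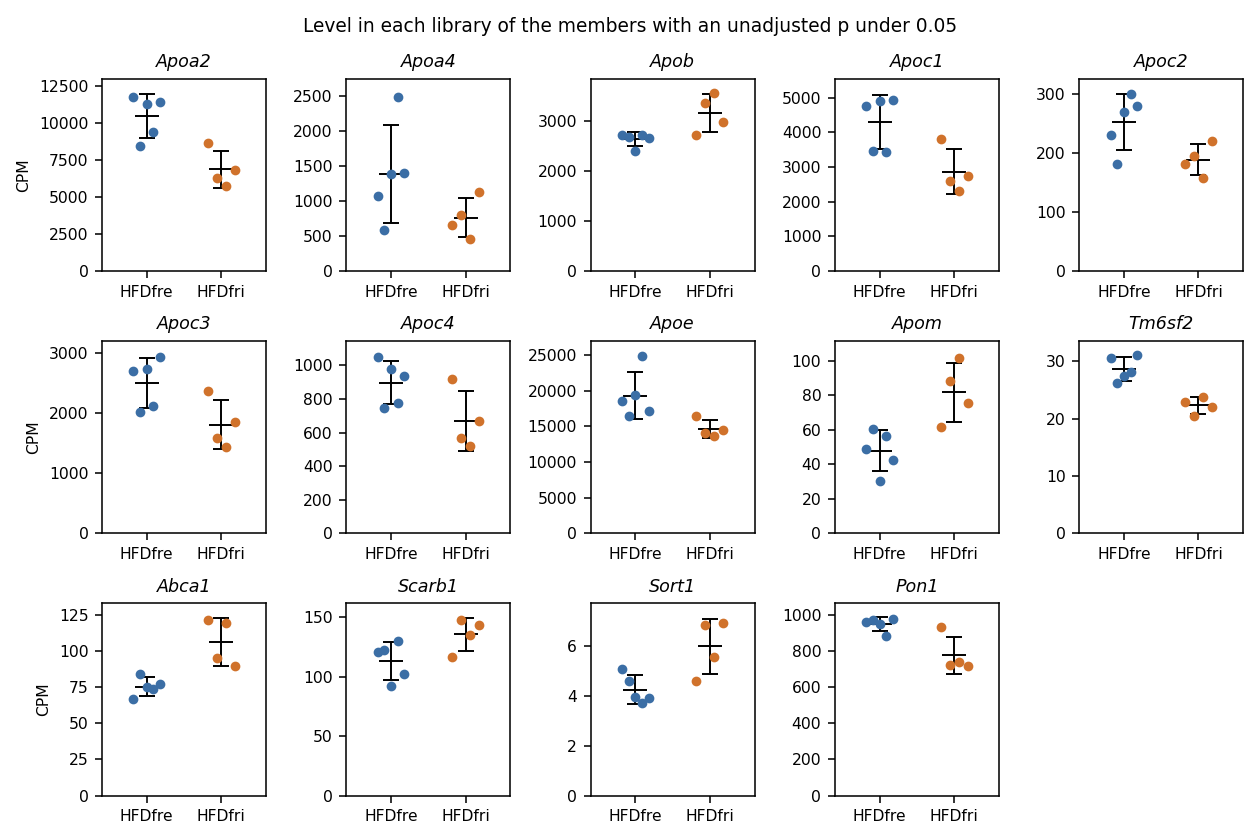
CPM in each library (points) for the 14 members with an unadjusted p under 0.05, with the group mean and SD as black bars and an axis that starts at 0 in each panel. Apoe, Apom, Tm6sf2 and Abca1 show no overlap between HFDfre (n = 5) and HFDfri (n = 4), and in the other panels except Apoa4 and Apoc2 the HFDfri point nearest to or within the HFDfre points is HFDfri 1, the leftmost.

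The genes of VLDL assembly did not move as 1. Mttp, the microsomal protein that loads lipid onto Apob, had 190.3, 165, 205, 227 and 219.8 CPM in HFDfre and 234, 215, 238 and 231 in HFDfri, a log2 fold change of 0.19 with an interval of -0.04 to 0.41 (edgeR adjusted p = 0.324). Tm6sf2 (ENSMUSG00000036151, chr8:70072924-70080066, plus strand), a membrane protein needed to lipidate VLDL fully, had 30.6, 26.3, 27.5, 28.1 and 31.1 CPM in HFDfre 1 to 5 and 22.9, 20.5, 23.8 and 22.03 in HFDfri 1 to 4. All HFDfri libraries lay below all HFDfre libraries. The log2 fold change was -0.36 (SE 0.09, edgeR adjusted p = 0.0685), and the adjusted p ran from 0.00978 to 0.464 over the alternatives, with 0.00978 in DESeq2.

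None of the 6 lipases and lipase regulators had an unadjusted p under 0.05, beside 21.2% of all tested genes. Hepatic lipase, Lipc, which acts on HDL and remnants at the liver surface, was the member of this role with the highest level per length. It had 130.1, 137, 104, 111 and 124 CPM in HFDfre and 119.7, 134, 136 and 109 in HFDfri, with a log2 fold change of 0.0407 and an interval of -0.19 to 0.27. Lpl, the lipase of muscle and fat, was low in both groups (4.800 to 9.58 and 4.64 to 8.01 CPM, log2 fold change -0.35, interval -0.90 to 0.20). Endothelial lipase, Lipg, ran from 6.62 to 17.9 CPM in HFDfre and from 2.46 to 19.5 in HFDfri, where HFDfri 1 was the lowest (log2 fold change 0.20, interval -0.78 to 1.17). Gpihbp1, the capillary anchor of lipoprotein lipase, was level at 4.88 ± 0.507 and 4.87 ± 1.47 CPM (SD, log2 fold change -0.00272, interval -0.44 to 0.44).

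The lipase inhibitors Angptl4 and Angptl8 overlapped between the groups. Angptl4, a fasting-induced inhibitor of lipoprotein lipase, had 128 to 213 CPM in HFDfre and 143 to 228 in HFDfri (log2 fold change 0.29, interval -0.07 to 0.64). Angptl8, a feeding-induced regulator of lipoprotein lipase, had 32.4, 26.9, 27.7, 30.2 and 35.5 CPM in HFDfre 1 to 5 and 103, 21.5, 28.7 and 16.7 in HFDfri 1 to 4. The value in HFDfri 1 stood apart from the other 8 libraries, and the direction rested on it: the log2 fold change was 0.47 with it (SE 0.43, edgeR adjusted p = 0.563) and -0.46 without it (edgeR adjusted p = 0.0933). Over the alternative fits the adjusted p of Angptl8 ran from 0.0933 to 0.944. This gene was given in full after its values were seen.

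In HDL remodelling and cholesterol export, Abca1 had the lowest p-value of all members. Abca1 (ENSMUSG00000015243, chr4:53030787-53159895, minus strand), which hands cholesterol and phospholipid to apolipoprotein A-I, had 67.2, 84.5, 74.9, 73.5 and 77.5 CPM in HFDfre 1 to 5 and 121, 95.2, 119.5 and 89.4 in HFDfri 1 to 4. The groups did not overlap. The means were 75.5 ± 6.29 and 106 ± 16.4 CPM (SD), a log2 fold change of 0.49 (SE 0.11, interval 0.25 to 0.74, edgeR adjusted p = 0.0566). Over the alternative fits the adjusted p ran from 0.00332 to 0.505, and 5 of 22 put it under 0.05.

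The other 3 genes of this role overlapped between the groups, and their intervals included 0. Lcat, which esterifies the cholesterol of HDL, had 343, 315, 291, 323 and 314 CPM in HFDfre and 323, 291, 326 and 325 in HFDfri, a log2 fold change of -0.00488 with an interval of -0.19 to 0.18. Pltp, which transfers phospholipid between particles, ran from 20.03 to 55.99 CPM in HFDfre and from 8.94 to 33.8 in HFDfri (log2 fold change -0.59, interval -1.38 to 0.21), and its exons overlap Ctsa on the opposite strand. Abcg1, an exporter to mature HDL and the member with the lowest level per length, was at 2.47 ± 0.634 and 1.88 ± 0.359 CPM (SD, log2 fold change -0.39, interval -0.90 to 0.11).

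Of the receptors and sorting proteins, Scarb1 and Sort1 were higher in HFDfri with an unadjusted p under 0.05, beside 11.4% of all tested genes. Both overlapped between the groups. Scarb1, the HDL receptor, had 121, 123, 91.9, 130.2 and 102 CPM in HFDfre 1 to 5 and 117, 148, 135 and 144 in HFDfri 1 to 4 (log2 fold change 0.26, SE 0.12, edgeR adjusted p = 0.234). Sort1, a sorting receptor that binds Apob, had 5.08, 4.59, 3.96, 3.71 and 3.92 CPM and 4.61, 6.86, 5.57 and 6.93 CPM (log2 fold change 0.50, SE 0.16, edgeR adjusted p = 0.1198). In both genes HFDfri 1 was the lowest HFDfri library and the other 3 lay above every HFDfre library. The remnant receptor Lrp1 had 393, 401, 314, 373 and 354 CPM in HFDfre and 381, 418, 425 and 418 in HFDfri, a log2 fold change of 0.16 with an interval of -0.05 to 0.37. Its chaperone Lrpap1 was among the steadiest members, at 30.4 ± 1.88 and 29.6 ± 1.22 CPM (SD, log2 fold change -0.0396, interval -0.22 to 0.14).

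The paraoxonases, antioxidant lactonases of which Pon1 and Pon3 travel on HDL, lie side by side in 130 kb of chromosome 6 (chr6:5168090-5298455, GRCm38) and did not share a direction. Pon1 had 963, 975, 949.9, 884 and 977 CPM in HFDfre 1 to 5 and 931, 721, 740.0 and 718 in HFDfri 1 to 4. The last 3 HFDfri libraries lay well below all of HFDfre, while HFDfri 1 was inside its range. The log2 fold change was -0.29 (SE 0.10, edgeR adjusted p = 0.152) with all libraries and -0.40 without HFDfri 1 (edgeR adjusted p = 0.0249, within a range of 0.0249 to 0.6400 over the alternatives). Pon2, which stays inside cells, was at 20.6 to 27.8 and 19.8 to 33.97 CPM (log2 fold change 0.30, interval -0.03 to 0.63), and without HFDfri 1 its log2 fold change was 0.43 (edgeR adjusted p = 0.0465, within a range of 0.0465 to 0.724). Pon3 was at 32.4 to 35.8 and 28.5 to 39.8 CPM (log2 fold change -0.0107, interval -0.23 to 0.21).

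Levels of different genes were compared per kilobase of exon, with all annotated exons of a gene merged. On this scale of CPM per kb, averaged over the 9 libraries, Apoa2 stood first with 16523, followed by Apoa1 with 9312, Apoe with 8077, Apoc1 with 4921 and Apoc3 with 2169. The last places were held by Sort1 with 0.664, Lpl with 0.649 and Abcg1 with 0.302. Most neighbours in this order were not separated: in 24 of the 31 steps the library values of the upper gene overlapped those of the next one. Apoc1 was above Apoc3 and Apoc3 above Apoh in every pair of libraries, as were Apob above Apom and Mttp above Lrp1. Apoa2, Apoa1 and Apoe overlapped in turn, and Apoa2 stood at 15694 to 21944 CPM per kb in HFDfre and at 10744 to 16061 in HFDfri, while Apoa1 stood at 8512 to 11697 and 7487 to 12073. Apolipoproteins held 11 of the first 12 places, and Pon1 held the other.

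Ratios of 2 counts in the same library do not depend on scaling. They were chosen after the values were seen and carry no test. The count of Apoa2 over that of Apoa1 was 0.815, 0.782, 1.05, 0.8101 and 1.09 in HFDfre 1 to 5 and 0.578, 0.682, 0.585 and 0.598 in HFDfri 1 to 4. Every HFDfri library had a lower ratio than every HFDfre library, HFDfri 1 included. In HFDfri 1 Apoa1 was at 14923 CPM, its highest value of all 9 libraries, while Apoa2 at 8625 CPM lay inside the HFDfre range. The count of Apoc3 over that of its neighbour Apoa1 was 0.183 to 0.280 in HFDfre and 0.146 to 0.172 in HFDfri, also with no overlap. Apoc1 over Apoe (0.138 to 0.288 against 0.170 to 0.230) and Apob over Apoa1 (0.188 to 0.253 against 0.182 to 0.362) overlapped. So did Apom over Apoa1, at 0.00282 to 0.00563 against 0.00414 to 0.0103. Apoa2 and Apoc3 have 0.537 and 1.014 kb of exon, and Apoa1 has 1.236 kb. Fold changes ran lower in shorter genes, as given below, and the part of this in the ratios was not tested. How often ratios of other gene pairs lack overlap was not computed.

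**Figure D4:**
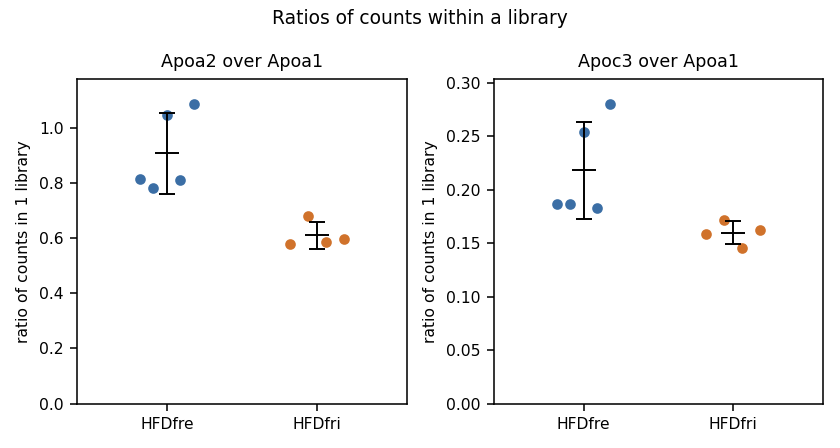
Ratio of the counts of Apoa2 (left) and Apoc3 (right) to the count of Apoa1 in each library, with the mean and SD as black bars and axes that start at 0. All 4 HFDfri libraries lie below all 5 HFDfre libraries in both panels, at means of 0.6105 against 0.908 for Apoa2 and 0.1599 against 0.218 for Apoc3.

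Exon length, with all annotated exons of a gene merged, moved with the fold change among the members and among all genes. It is not the length of a single transcript. Over all 14084 tested genes with an exon length, the median log2 fold change was -0.26 for genes under 1 kb, -0.14 at 1 to 2 kb, -0.04 at 2 to 4 kb, 0.04 at 4 to 8 kb and 0.08 above 8 kb. The medians of the members in the same classes were -0.50 (4 genes), -0.15 (8 genes), -0.06 (9 genes), 0.19 (6 genes) and 0.26 (5 genes). Of all tested genes in these classes, 74.2%, 67.5%, 54.5%, 44.4% and 39.1% were lower in HFDfri. Of the members, 3, 7, 7, 2 and 1 were lower. Across genes, which are not independent replicates and share the 9 libraries, log2 length and log2 fold change had a Pearson r of 0.38 and a Spearman rho of 0.45 in the 32 members, and 0.19 and 0.22 in all tested genes. The short Apoa2, Apoc1, Apoc2 and Apoc3 were on the lower side, and the long Apob, Abca1 and Scarb1 were on the higher side. Angptl8, at 0.865 kb, and Apom, at 1.013 kb, stood against this order, and so did Lpl and Abcg1, at 10.5 and 7.298 kb.

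With a correction for exon length and GC content, chosen after seeing the data, 0 members had an adjusted p under 0.05, beside 0.93% of all tested genes, and 8 had an unadjusted one, beside 19.6%. The 8 were all among the 14, and Apoa4, Apob, Apoc2, Apoc3, Apoe and Scarb1 were no longer there. Corrected log2 fold changes were 0.99 for Apom (edgeR adjusted p = 0.0632), 0.43 for Abca1 (edgeR adjusted p = 0.0899) and -0.36 for Apoa2 (edgeR adjusted p = 0.132). The correction moved Apoe from -0.40 to -0.22 and Apoc2 from -0.42 to -0.17. The part of RNA quality or library making in this relation was not tested.

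**Figure D5:**
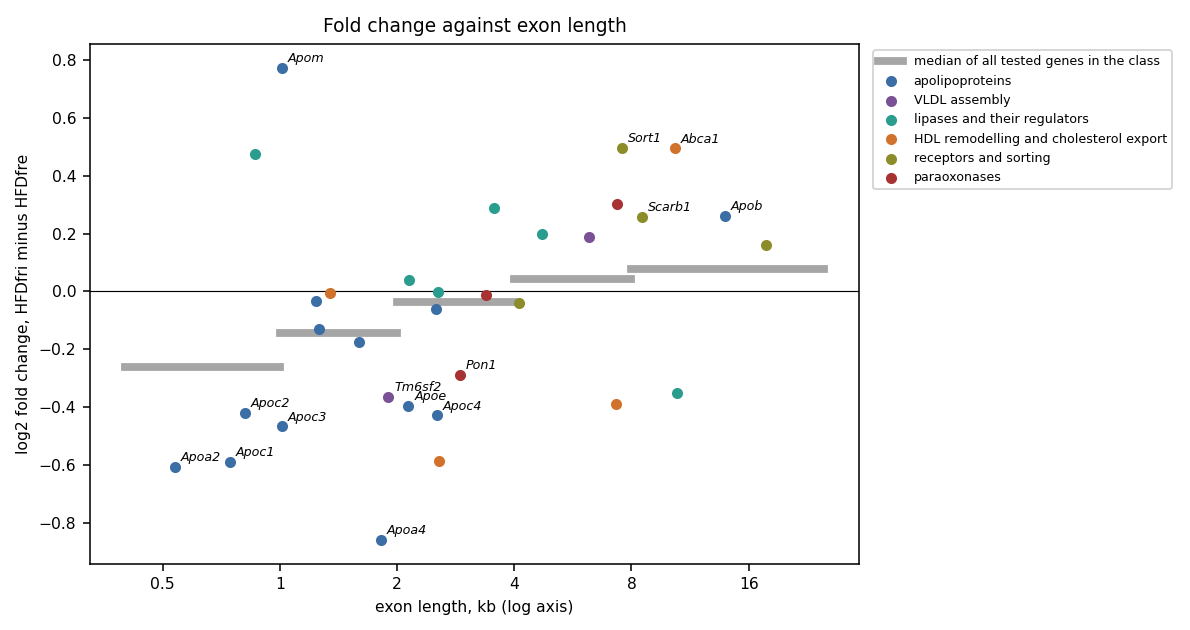
Log2 fold change of each member, HFDfri minus HFDfre, against its exon length in kb on a log axis, coloured by role and named where the unadjusted p was under 0.05. Grey bars give the median of all tested genes in each length class, from -0.26 under 1 kb to 0.08 above 8 kb; most short members lie below 0 and Apom lies far above the bar of its class.

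Genes around the members were taken in 5 lists. Of 12 tested genes of lipoprotein receptors and uptake, 0 rose and 1 fell with adjusted p under 0.05, beside 1.05% of all tested genes. The 1 was Vldlr, the VLDL receptor, at 1.54, 2.68, 2.06, 3.05 and 1.497 CPM in HFDfre and 0.481, 0.899, 0.9503 and 0.592 in HFDfri. Its groups did not overlap (log2 fold change -1.56, SE 0.31, edgeR adjusted p = 0.0396). For Lrp6, a Wnt co-receptor, the log2 fold change was 0.21 (adjusted p = 0.175).

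Of the genes of lipase maturation and inhibition, the secreted protein Angptl6 was at a fold change of -0.51 on the log2 scale (adjusted p = 0.128) and Lmf2, of the lipase maturation factor family, at -0.33 (adjusted p = 0.133). None of the 10 VLDL secretion partners had an adjusted p under 0.05, beside 1.05% of all tested genes. By unadjusted p under 0.05, 2 were higher and 1 lower, beside 11.4% and 9.79% of all tested genes. The log2 fold change was 0.60 for Apobec1, the enzyme that edits Apob mRNA (adjusted p = 0.118), and 0.33 without HFDfri 1. For Mia2, which helps load large cargo at the endoplasmic reticulum, it was 1.27 (adjusted p = 0.162), with 2.404, 20.9, 21.2 and 8.01 CPM in HFDfri 1 to 4 against 4.28 to 7.71 in HFDfre. This is the entry ENSMUSG00000035349, while GENCODE M21 gives the symbol Mia2 to ENSMUSG00000021000, which is not reported here. For Cideb, a lipid droplet protein of VLDL lipidation, the log2 fold change was -0.28 (adjusted p = 0.178).

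In a list of further apolipoprotein-related and serum amyloid A genes, a place on lipoproteins was not tested for each gene. Of its 11 tested genes, 0 rose and 1 fell with adjusted p under 0.05, beside 1.05% of all tested genes. The 1 was Apol9b, with 117 to 202 CPM in HFDfre and 70.8 to 114 in HFDfri (log2 fold change -0.77, edgeR adjusted p = 0.0493). Its near copy Apol9a was at -0.82 on the same scale (adjusted p = 0.0665), and reads of the 2 may be shared. Saa4, a constitutive serum amyloid A protein of HDL, was at 282 to 359 CPM in HFDfre and at 379 to 749.8 in HFDfri, without overlap (log2 fold change 0.80, edgeR adjusted p = 0.0606). None of 19 transcription factors known to act on apolipoprotein genes had an adjusted p under 0.05, beside 1.05% of all tested genes. By unadjusted p under 0.05, 7 of them were higher and 2 lower, beside 11.4% and 9.79% of all tested genes. The hepatocyte factor Hnf4a was at 302 to 356 CPM in HFDfre and 399.6 to 509 in HFDfri (log2 fold change 0.46, edgeR adjusted p = 0.0566). Foxa3, a pioneer factor of the liver, was at 0.60 (adjusted p = 0.0701), and Nr2f2, an orphan nuclear receptor, at -0.41 (adjusted p = 0.0806). The calls of Vldlr and Apol9b were sensitive to single libraries: without any 1 library other than HFDfri 1 or HFDfri 2 the adjusted p of Vldlr was 0.0588 to 0.0966. Without any 1 library other than HFDfre 4 or HFDfri 1, that of Apol9b was 0.0653 to 0.136. Over all alternatives the adjusted p ran from 0.0001304 to 0.408 for Vldlr and from 0.000429 to 0.348 for Apol9b.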

How the data were processed

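Liver RNA of 9 animals was measured by RNA-seq. Per the study's methods and the labels, RNA was extracted with TRIzol, the paired-end Illumina reads were aligned with HISAT2, and the processing notes of the submitters also name StringTie and mm10. The library kit differs between the labels and the methods, and neither the annotation nor the use of strand is given in the sources used here. The authors deposited 1 table of estimated counts per gene, as whole numbers not scaled between libraries. Low values of the deposited estimated counts pile up at multiples of 4 (3990 values of 4, against 2172 of 3 and 1840 of 5), so counting error is treated approximately.

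Here, genes were kept with filterByExpr of edgeR 4.0.16 in R 4.3.3 (14220 of 33211), and HFDfri was compared with HFDfre by the quasi-likelihood test with TMM scaling and no covariate. P-values were two-sided and Benjamini-Hochberg adjusted over the whole set of tested genes, with a threshold of 0.05. The SE is the log2 fold change over the square root of F, and intervals are at 95%. DESeq2 1.42.0, limma-voom (limma 3.58.1), other scalings, filters, covariates and fits without each library were alternatives. The length and GC correction removed splines from each library. Coordinates and exon lengths are from GENCODE M21 (GRCm38), and promoters are from RefSeq (GRCm38.p6). The fits were tested on simulated data.

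All 32 members are described. Values in every library are given for members with an unadjusted p under 0.05 or a 2-fold change. They are also given for the member of each role with the highest level per length. From the other lists, genes were named among those past the adjusted threshold and up to 3 per list with the lowest unadjusted p under 0.05. Most of these are given by range or fold change only. Some genes of these lists are not reported here. The members, the lists and the tests were chosen with earlier results of these data known. Replicate numbers of the labels did not pair the animals: deviations of libraries with the same number correlated at -0.136 to 0.0813.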

Additional observations from a re-analysis of the deposited data

Results flagged for a closer look

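For each member and each group of 4 or 5 libraries, the highest and the lowest value were compared with the rest of the group. In 7 of the 64 sets of values, 1 library stood apart from the others by more than Dixon's 95% critical value, where chance alone gives about 3.2. Causes were not tested. In HFDfri, HFDfri 1 stood apart for 3 members. Angptl8 was at 102.8 CPM there, with 16.7 to 28.7 in the others, Pon1 was at 931 CPM, with 718 to 740.0, and Lrp1 was at 381 CPM, with 418 to 425. Lcat in HFDfri 2 was at 291 CPM, with 323 to 326 in the others. In HFDfre, Apoa1 in HFDfre 1 was at 14458 CPM, with 10521 to 11602 in the others, Apob in HFDfre 3 was at 2392 CPM, with 2659.5 to 2728, and Pon3 in HFDfre 5 was at 32.4 CPM, with 34.97 to 35.8. Without HFDfri 1 the log2 fold change of Angptl8 changed sign and that of Pon1 passed the adjusted threshold.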

How the results depend on the processing

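The limits are those of 5 against 4 libraries. With edgeR, 0 members had an adjusted p under 0.05, beside 1.05% of all tested genes. The count was 0 to 10 across fits without 1 library (10 without HFDfri 1), beside 0.0426% to 7.65% of all tested genes. It was 8 with DESeq2, beside 9.8%. It was 1 with mitochondrial, Mup and Gm26924 counts left out (Abca1, beside 1.30%) and with robust dispersion (Abca1, beside 1.32%). With the Gm26924 share as a covariate it was 1 too (Apom, beside 0.654%). The count was 0 in the other alternatives, beside 0% to 1.69%. By unadjusted p under 0.05 the count was 14 in the main fit, beside 21.2% of all tested genes. Across fits without 1 library it was 8 to 17, beside 13.6% to 25.7%. It was 8 with the length and GC correction, beside 19.6%, and 10 to 15 in the others, beside 9.67% to 24.0%. The median log2 fold change of -0.0368 was -0.13 to -0.0284 across fits without 1 library and turned to 0.0181 with library totals and to 0.0223 with the length and GC correction, where the median of all tested genes moved from -0.00679 to 0.0514 and 0.02305. A term for the replicate number (replicate block) gave 0 members by adjusted p, where 0% of all tested genes passed. It gave 12 by unadjusted p, beside 17.8%, a median of -0.0817, and for Lipg -0.08102. Since the numbers do not pair the animals, this is not a paired result. Causes of these moves were not tested.

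Apart from Lipg and Angptl8, members that changed sign had fold changes near 0 to begin with. With library totals the log2 fold changes were 0.0158 for Apoa1, 0.0753 for Gpihbp1, 0.0539 for Lcat, 0.0204 for Lrpap1 and 0.0603 for Pon3. With mitochondrial, Mup and Gm26924 counts left out they were 0.0106 for Gpihbp1, 0.00758 for Lcat and 0.00171 for Pon3. With the Gm26924 covariate they were 0.0295 for Apoa1, 0.0103 for Gpihbp1, 0.0532 for Lcat and 0.002899 for Pon3. In the 2 HFDfre and 3 HFDfri libraries with a Gm26924 share under 3% they were 0.15 for Apoa1, 0.0758 for Apoa5, -0.0706 for Lipg, 0.0437 for Lcat and 0.0148 for Lrpap1. With the length and GC correction they were 0.16 for Apoa1, 0.0314 for Apoa5, 0.0133 for Apof, 0.0622 for Gpihbp1 and 0.18 for Lcat. Lipg was -0.0179 with limma-voom and -0.0475 with a prior count of 10. Without 1 library, the log2 fold changes ran from -0.20 to 0.0522 for Apoa1, -0.12 to 0.0141 for Apoa5, -0.0162 to 0.0984 for Lipc, -0.0989 to 0.53 for Lipg, -0.16 to 0.17 for Gpihbp1, -0.46 to 0.74 for Angptl8, -0.0401 to 0.0328 for Lcat and -0.08595 to 0.05902 for Pon3.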
